A study of Mus musculus with 4 samples.

Results

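Messenger RNAs of 43 haematopoietic stem cell regulators were examined for NAT10 binding in 32D cells. The set was chosen by name: transcription factors, receptors, cell cycle inhibitors, chromatin proteins and survival factors of blood stem cells, apart from Mecom, Runx1, Erg, Fli1 and Gata2. Of these 43 genes, 13 had at least 1 peak in the authors' deposited list and 30 had none. The 13 genes held 41 of the 4172 distinct peaks listed. All values below are the authors' own per peak, since the list has no value per library, so no spread between replicates can be given.

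NAT10 is the enzyme that places N4-acetylcytidine on RNA, and the series set out to find the mRNA sites it touches, with blood stem cells in view. The assay was eCLIP, which crosslinks proteins to RNA with UV light, recovers 1 protein with an antibody and sequences the RNA fragments held to it. There were 2 libraries from immunoprecipitates (IP) with a NAT10 antibody and 2 input libraries made without an antibody. Both groups came from 32D cells of wild-type genotype, a cultured mouse line that the labels call bone marrow lymphoblastocytes, grown with 10% serum and 10 ng/mL of interleukin-3 and crosslinked at 150 mJ and 254 nm. The 32D line is a single cultured line and not a stem cell population, and no label tells if replicate libraries were made from different cultures. Of 12 marker genes of interleukin-3-dependent myeloid progenitors 4 had a peak (Csf2rb, Srgn, Ptprc and Prtn3), and of 12 lymphoid markers none had, against 7.33% of all protein-coding genes. Lymphoid cells also express Ptprc, so it does not separate the lists. A peak is not a measure of expression, and lists of this size do not type the cells.

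Blood stem cells are held in a quiet, undifferentiated state by a network of transcription factors, by inhibitors of the cell cycle and by survival proteins. Several of them, MCL1 among them, turn over fast, and the 3' untranslated region (UTR) of an mRNA often carries elements that set its decay and translation. Binding of an RNA-modifying enzyme to such an mRNA is a measurement of contact and says nothing by itself of acetylation, stability or protein output.

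The share of the 43 genes with a listed peak was 30.2% (95% Clopper-Pearson interval 17.2 to 46.1, counting error only). Over all 21900 protein-coding genes of the reference table the share was 7.33%. The background includes genes that 32D cells may not transcribe, and no expression values were used here, so the gap between these shares was not tested and cannot be read as preference. A peak in the 3' UTR was listed for 10 of the 43 genes, against 5.2% of all protein-coding genes. An exon peak was listed for 5 (3.16% of all) and a 5' UTR peak for 2 (0.671% of all). Peaks in 2 or more separate regions were listed for 8 of the 43 (3.41% of all), and 6 or more peaks for 4 (0.667% of all). A peak with a log2 fold above the list's median of 4.60 was listed for 7 of the 43 (3.95% of all), and one with a -log10 p above the list's median of 5.68 for 6 (3.57% of all).

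By role, the listed genes were found in 5 of 7 groups. The cell cycle brakes had 3 of 4 members with a peak, and the factors of stress, metabolism and survival 3 of 7. The group of the SCL (Tal1) complex and partners had 3 of 8. That group takes in factors outside the complex itself, such as Cbfb, which has a peak, and Etv6, which has none. Chromatin and DNA methylation proteins had 2 of 6, and lineage and self-renewal factors 2 of 7. None of the 7 genes of the HOX axis group and none of the 4 receptor and surface genes had a listed peak. The HOX axis group also takes in Prdm16 and Hlf, which are neither Hox genes nor Hox cofactors. These groups are small, and no test was made between them.

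**Figure D1:**
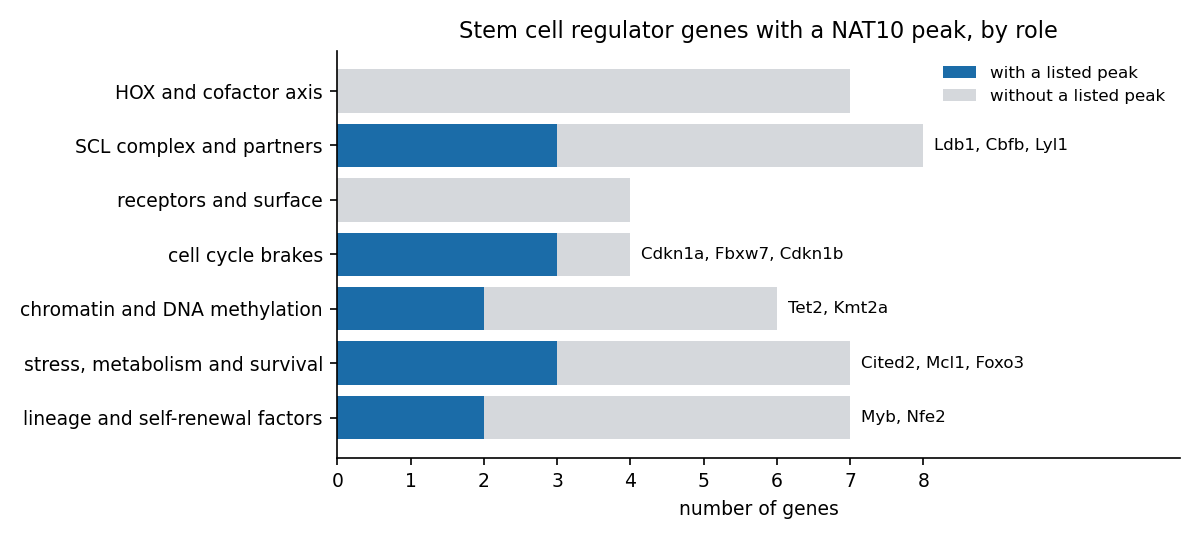
Bars give the number of genes in each role (x axis), split into genes with a listed NAT10 peak (blue, named at the right) and genes without one (grey). Blue is present in 5 of the 7 roles. The HOX axis group, with 7 genes including Prdm16 and Hlf, and the receptors, with 4, are grey throughout.

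Most of the peaks lay on 4 genes. Cdkn1a had 8 peaks, Mcl1 had 7, and Myb and Cited2 had 6 each, which makes 27 of the 41. In the whole list 75 of 1626 gene symbols had 8 peaks or more, and 153 had 6 or more. At the other end, 5 of the 13 genes had a single peak (38.5%), against 46.9% of all listed genes. The median strongest log2 fold of the 13 genes was 4.69, the same as the 4.69 of all 1626 listed genes. Of the 13 genes 6 lay above the list's median gene and 6 below, with Cbfb on it, and the highest, Myb, ranked 149 of 1626.

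**Figure D2:**
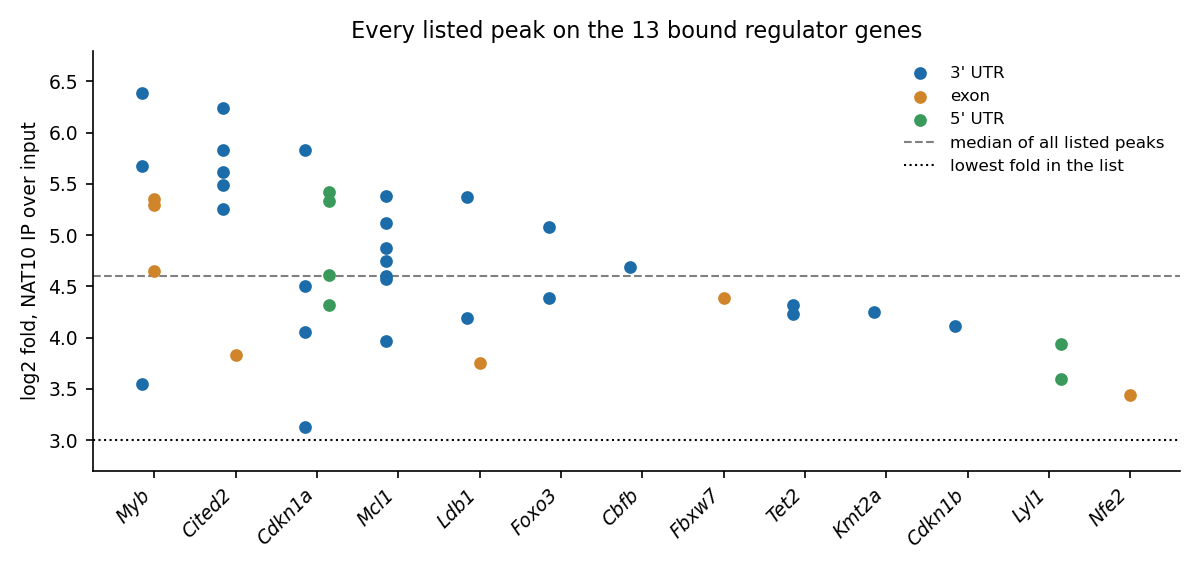
Each point is 1 listed peak, with the gene on the x axis (ordered by its strongest peak) and the authors' log2 fold of NAT10 IP over input on the y axis; colours give the authors' class, the dashed line the median of all listed peaks (4.60) and the dotted line the lowest fold in the list (3.00). Myb and Cited2 reach above 6, and all peaks of Fbxw7, Tet2, Kmt2a, Cdkn1b, Lyl1 and Nfe2 lie under the dashed line.

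Among the lineage and self-renewal factors, Myb had the strongest peak of all 43 genes. It encodes a transcription factor that progenitors need in order to proliferate, and its level falls as blood cells mature. The strongest Myb peak lay in the 3' UTR at chromosome 10, 21001130 to 21001276 on the minus strand (GRCm39, as are all positions here), with a log2 fold of 6.38, which is 83.5-fold, and a -log10 p of 19.5. Of all listed genes 90.8% had a lower strongest peak. Directly downstream 2 further peaks abutted it, with log2 folds of 5.68 and 3.55, so the 3 pieces formed 1 stretch of 294 nt on which the fold was highest at the 5' end. A second stretch of 144 nt lay in an exon upstream, at 21023025 to 21023168, again in 3 abutting pieces with log2 folds, in the order of the strand, of 5.29, 5.35 and 4.65. The stretches were 21748 nt apart in the genome, a distance that counts introns. Nfe2, a transcription factor of megakaryocytes and erythroid cells, had 1 exon peak, with a log2 fold of 3.44 at chromosome 15, 103157227 to 103157391. It was the weakest of the 13 genes by its strongest peak, and 2.71% of listed genes lay lower. No row was listed for Ikzf1, Zfx, Spi1, Cebpa or Sox17.

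The stress, metabolism and survival group held 15 peaks on 3 genes. Cited2 encodes a co-regulator that binds CBP and p300 and restrains HIF-1, and stem cells depend on it. Its 3' UTR carried 5 abutting peaks over 248 nt without a gap, at chromosome 10, 17600739 to 17600986. Along the strand their log2 folds were 5.49, 5.83, 5.62, 6.24 and 5.26, and their -log10 p values 9.28, 16.5, 15.2, 17.0 and 8.41. The highest, 75.7-fold, was at 17600876 to 17600940 on the plus strand. All 5 pieces were above the list's median of 4.60, and the inner 3 had the higher -log10 p values. A sixth, weaker peak lay 975 nt upstream in the exon class, with a log2 fold of 3.83.

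Mcl1 encodes a short-lived BCL-2 family protein that keeps stem and progenitor cells alive. Its 7 peaks were all in the 3' UTR and were spread over 1304 nt, from 95568921 to 95570224 on chromosome 3. Along the strand the log2 folds were 4.60, 4.75, 5.38, 5.12, 3.97, 4.88 and 4.57, and the -log10 p ran from 4.10 to 9.28. The strongest, at 95569014 to 95569106, was 41.7-fold and exceeded the strongest peak of 75.2% of listed genes. The first 3 peaks were 5 and 19 nt apart and the last 2 abutted, with gaps of 121 to 490 nt between the rest. Unlike the single stretch of Cited2, the Mcl1 peaks thus formed 6 regions, and their folds lay on both sides of the list's median. Foxo3, a forkhead factor that protects resting stem cells from oxidative stress, had 2 peaks in the 3' UTR. The stronger, at chromosome 10, 42058153 to 42058293, had a log2 fold of 5.08 (-log10 p 6.88), and the other, 109 nt upstream, 4.38 (-log10 p 4.11). Foxo1, Egr1, Hif1a and Stk11 had no row.

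**Figure D3:**
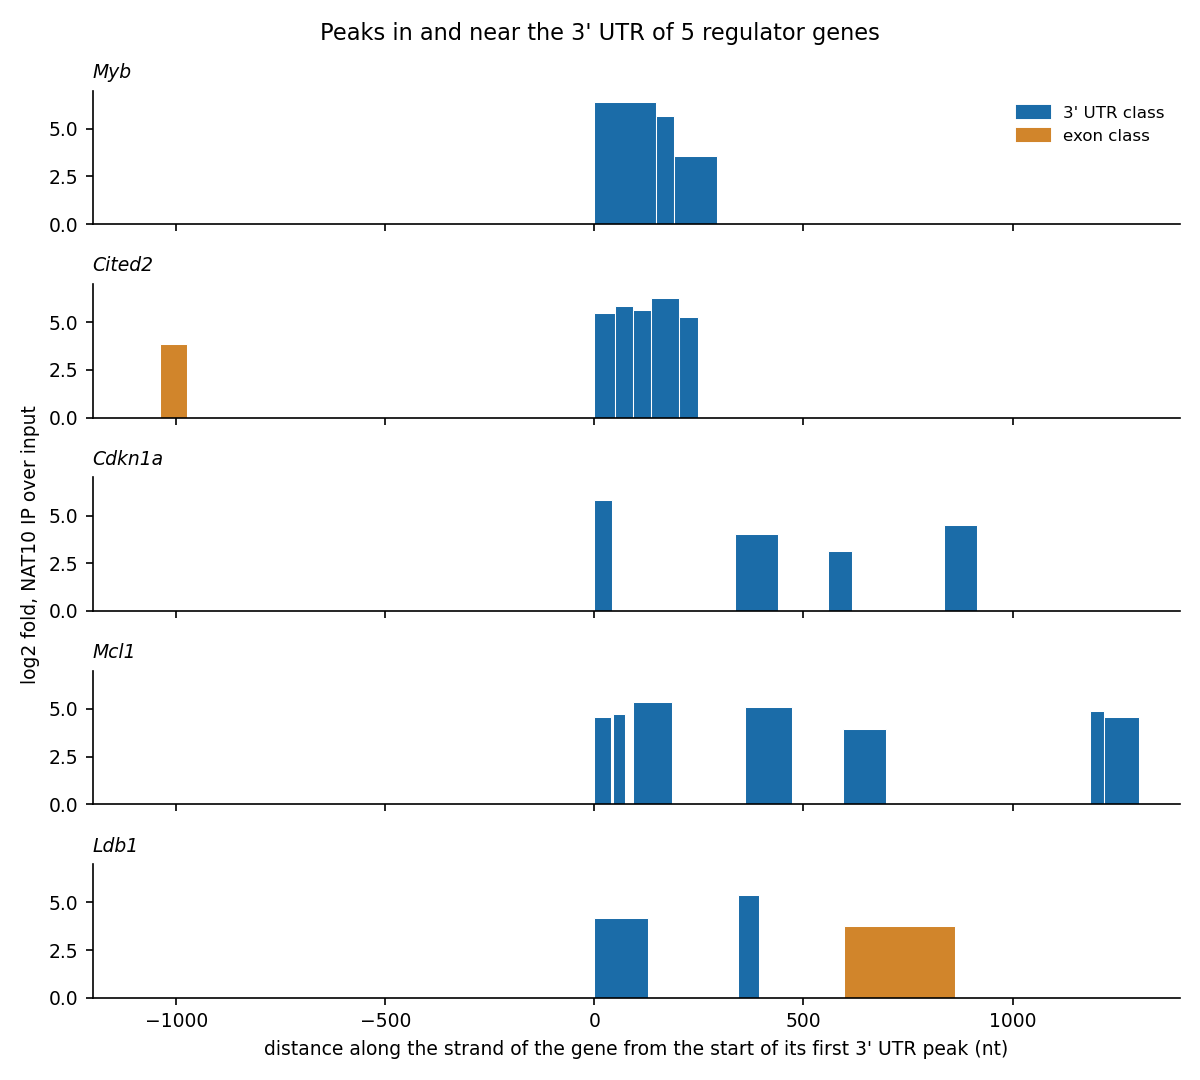
Bars show listed peaks at their true width, by distance in nt along the strand of the gene from the start of its first 3' UTR peak (x axis), with the authors' log2 fold of NAT10 IP over input as height (y axis, from 0). Cited2 and Myb show 1 unbroken stretch of 248 and 294 nt, Cdkn1a and Mcl1 show separate regions, and in Ldb1 the exon-class peak lies past both 3' UTR peaks; the 5' UTR peaks of Cdkn1a and the exon peaks of Myb lie further upstream than the axis reaches.

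The cell cycle brakes were led by Cdkn1a, which encodes the cyclin-dependent kinase inhibitor p21, a target of p53. It was the gene with the most peaks, 4 in the 5' UTR and 4 in the 3' UTR, with none in the exon class. In the 5' UTR a first cluster ran from 29312789 to 29312975 on chromosome 17, with log2 folds of 5.42, 4.32 and 5.33 along the strand. The fourth 5' UTR peak lay 3912 nt further on, at 29316888 to 29316917, with a log2 fold of 4.61. In the 3' UTR the folds along the strand were 5.83, 4.05, 3.12 and 4.51 over 916 nt. The strongest peak by fold was the first of these, at 29318474 to 29318515, with 57.0-fold, above the strongest peak of 83.9% of listed genes, while the highest -log10 p of the gene, 17.0, belonged to the third 5' UTR peak, at 29312909 to 29312975. Both UTR classes of Cdkn1a were thus listed, with top log2 folds of 5.83 in the 3' UTR and 5.42 in the 5' UTR. Whether these peaks belong to 1 transcript is not known. Cdkn1b, which encodes p27, had 1 peak in the 3' UTR, with a log2 fold of 4.11 (-log10 p 3.27) at chromosome 6, 134902341 to 134902435. Fbxw7, the substrate receptor of a ubiquitin ligase that removes MYC and cyclin E, had 1 exon peak, with a log2 fold of 4.38 (-log10 p 4.11) at chromosome 3, 84781984 to 84782045. For Cdkn1b 10.7% and for Fbxw7 32.6% of listed genes had a lower strongest peak, so the brakes with a listed peak ran from near the bottom of the list to its upper part. Cdkn1c, which encodes p57, had no row.

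In the SCL complex, Ldb1 is the bridging protein that joins its DNA-binding members and brings enhancers to promoters. Its 2 peaks of the 3' UTR class had log2 folds of 4.19 and 5.37 along the strand, the stronger at chromosome 19, 46022062 to 46022111 on the minus strand. The peak of the exon class, at 46021592 to 46021858, had the lowest fold of the gene, 3.75, but its highest -log10 p, 13.3. It was also the widest of the 41 peaks, at 267 nt. By position this exon peak lay 203 nt downstream of the 3' UTR peaks, so the class names of Ldb1 do not follow the order of a single transcript. Cited2 and Myb, the other genes with peaks in exon and 3' UTR, had the exon peaks upstream. In the whole list 11 of 267 such genes (4.12%) had an exon peak past all their 3' UTR peaks. The transcript models behind the classes are not given in the sources used.

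Cbfb, the partner of RUNX1 in DNA binding, had 1 peak in the 3' UTR, with a log2 fold of 4.69 (-log10 p 4.95) at chromosome 8, 105943511 to 105943608. Lyl1, a basic helix-loop-helix factor related to Tal1, had 2 peaks, both in the 5' UTR, with log2 folds of 3.59 and 3.94 at chromosome 8, 85429305 to 85429430 and 85429502 to 85429623. Their -log10 p values were 3.85 and 3.82. Of the 13 genes, only Lyl1 had peaks in the 5' UTR alone. Tal1, Lmo2, Gfi1, Gfi1b and Etv6 had no row.

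Of the chromatin and DNA methylation proteins, Tet2, which oxidises 5-methylcytosine and restrains stem cell self-renewal, had 2 peaks in the 3' UTR. Their log2 folds were 4.23 and 4.32, at chromosome 3, 133169865 to 133169999 and 133169582 to 133169684, and their -log10 p values 3.27 and 4.10. Kmt2a, a histone H3 lysine methyltransferase that maintains Hox gene expression, had 1 peak in the 3' UTR, with a log2 fold of 4.25 (-log10 p 3.34) at chromosome 9, 44714819 to 44714960. All 3 peaks were below the list's medians of fold and of -log10 p. Bmi1, Dnmt3a, Asxl1 and Men1 had no row. In the HOX axis group Meis1, Hoxa5, Hoxa7, Hoxa9 and Hoxb4 had none, nor did Prdm16 and Hlf, which were placed with them. Neither did the receptor and surface genes Kit, Tek, Cd34 and Slamf1. Since the list begins at a log2 fold of 3.00, a gene without a row is not shown to be unbound, and RNAs absent from these cells cannot be told apart from RNAs that NAT10 does not touch.

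Over all 41 peaks the 3' UTR held 28 (68.3%, 95% Clopper-Pearson interval 51.9 to 81.9), exons 7 (17.1%, 7.15 to 32.1) and the 5' UTR 6 (14.6%, 5.57 to 29.2). In the whole list the shares were 57.6%, 36.7% and 5.68%. The peaks of 1 gene are not independent, and 4 of the 6 peaks in the 5' UTR belonged to Cdkn1a and the others to Lyl1. By gene, 10 of 13 had their strongest peak in the 3' UTR (76.9%, against 62.2% of all listed genes), and 6 had peaks in the 3' UTR alone (46.2%, against 52.5%). Peaks were 22 to 267 nt wide with a median of 67 nt, against a median of 79 nt in the whole list. Of the 41 peaks 15 touched another and joined into 5 stretches, in Myb, Cited2, Cdkn1a and Mcl1, which left 31 separate regions. In the whole list the same joining left 3421 regions of 4172 peaks. Genes with and without a peak overlapped in genomic span, which counts introns. The length of their mRNAs was not measured. The median genomic span of the 13 in the RefSeq table of GRCm38.p6 was 16621 nt (2447 to 164209), against 23224 nt (2636 to 321239) for the 30 without, and Cited2, the shortest of all 43, had the second highest fold. Of the 13 genes 6 (Myb, Foxo3, Ldb1, Tet2, Kmt2a and Nfe2) lie on the minus strand and 7 on the plus strand.

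Fold and p ranked these peaks differently, and the list holds a trace of the read counts behind the folds. The value examined was 2 raised to the power of 2 times the log2 fold. For 82.8% of the listed peaks it falls on whole multiples of 1 common unit (within 0.01). A mean of 2 log2 ratios gives this pattern when the count used for each input library is 1. That count may be a single read or a floor set in place of an empty input, which the sources used do not tell. Higher input counts also give whole multiples where their product divides that of the IP counts. A peak with this pattern may therefore have more than 1 input read. The pattern is called the step of 1 input read here. For the regulators 30 of 41 folds (73.2%) lay on this step, with at least 1 such peak on each of the 13 genes. The other 11 peaks belonged to 5 genes, Cdkn1a, Myb, Cited2, Mcl1 and Ldb1, and their folds need more input reads; a peak off the step was listed for 1.76% of protein-coding genes. The median log2 fold of those 11 was 4.05 but their median -log10 p 8.01, while the 30 on the step had 4.82 and 6.08. The whole list ran the same way, with 4.01 and 8.35 off the step and 4.66 and 5.38 on it. The 8 genes with peaks only on the step were Foxo3, Cbfb, Fbxw7, Tet2, Kmt2a, Cdkn1b, Lyl1 and Nfe2. Their -log10 p ran from 3.27 to 6.88. The input behind their folds may be as low as 1 read in each library, or empty with a floor. The strongest peaks of Myb (6.38), Cited2 (6.24), Cdkn1a (5.83), Mcl1 (5.38) and Ldb1 (5.37) also lay on the step. The strongest folds of all 13 genes, and their ranks, may thus carry the same limit, though the input counts behind them are not known. Off the step the highest log2 folds were 5.62 for Cited2, 5.33 for Cdkn1a, 4.19 for Ldb1, 3.97 for Mcl1 and 3.55 for Myb.

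**Figure D4:**
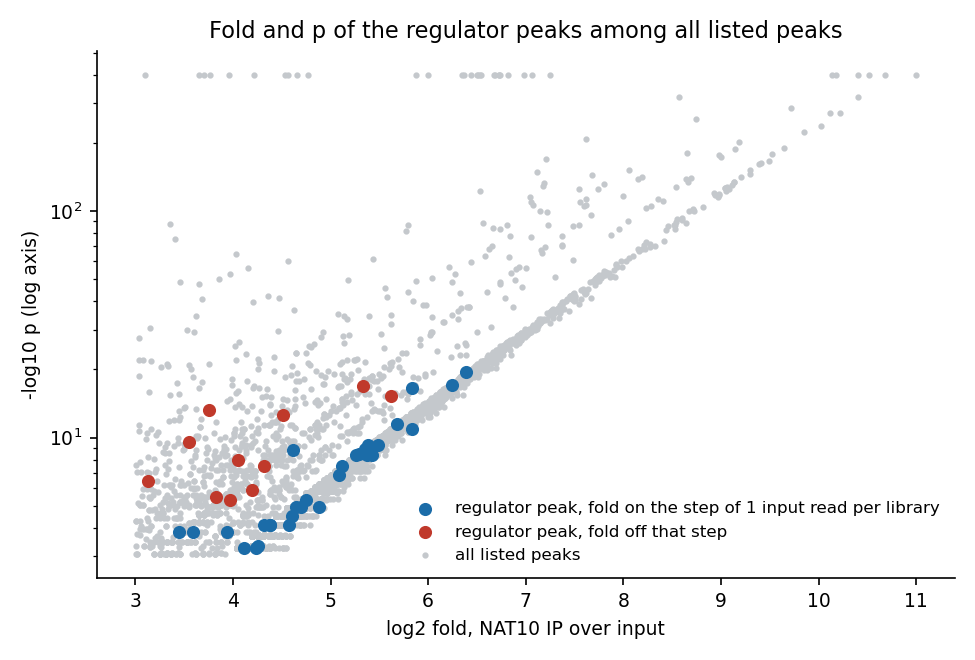
Each point is 1 listed peak. The x axis gives the authors' log2 fold of NAT10 IP over input and the log y axis their -log10 p. Grey points are all 4172 peaks. Blue points are the 30 regulator peaks whose fold lies on the step of 1 input read per library, which higher input counts can also give. Red points are the 11 off that step. Most blue points follow the lower edge of the cloud, while the red points lie above that edge, up to a -log10 p of 17.0.

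The 5 regulators left out of the set are given for scale only. Among the 41 peaks described here the median log2 fold was 4.61, against 6.60 for the 36 peaks of Mecom and 6.17 for the 19 peaks of Runx1, Erg, Fli1 and Gata2 together. Myb, the highest of the 13 by strongest peak (6.38), stood below Fli1 (6.67), Erg (6.70), Runx1 (7.50) and Mecom (8.44), while Foxo3 (5.08) stood beside Gata2 (5.04). Those 5 were set apart with their values known, so the difference was not tested.

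Further genes of the same pathways, 67 in 7 lists, were looked up in the same way, and 11 had a peak (16.4%, against 7.33% of all protein-coding genes, expressed in these cells or not). Partners of the SCL complex had 2 of 8, Cbfa2t3 (strongest log2 fold 5.69) and Tcf12 (4.32). The cell cycle brakes had 2 of 8, the p53 gene Trp53 (4.48) and Cdkn2c (4.32), and the stress and metabolism list had 3 of 10, among them the survival gene Bcl2l1 (5.46) and Arnt (4.51), which pairs with HIF proteins. Chromatin proteins had 3 of 17, the Polycomb subunit Suz12 (5.52), Kmt2d (4.68) and Dnmt1 (4.38). Among receptors and ligands 1 of 7 was listed, Angpt1 (6.67), the ligand of the Tek receptor. None of 7 further HOX genes and cofactors and none of 10 lineage factors had a row. All 7 peaks of Mcl1 were in the 3' UTR, whereas all 3 of Bcl2l1, a survival gene of the same family, were in the 5' UTR.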

How the data were processed

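The authors summarised 2 NAT10 IP and 2 input libraries of 32D cells in 1 peak list of 4206 rows and 4172 distinct peaks. A p column stands in it per the file headers, and was read as -log10 p because its values run from 3.07 to 400. The deposited fold was read as log2 of IP over input, because its steps fit means of log2 ratios of whole read counts. Whether p was adjusted, the aligner, the peak caller, the cut-offs and the handling of replicates are not given in the sources used; per the submitters' processing notes the build is GRCm39. Library depth is unknown.

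Rows were taken by gene symbol; all 43 symbols were also in the RefSeq table of GRCm38.p6, used for names, gene types and spans only. No member peak was listed under a second gene. Positions are counted from 1. Touching peaks of a gene (gap of 0 nt) were joined into regions. The region and step calculations were tested on simulated data. Python 3.11.15, pandas 2.3.3 and SciPy 1.17.1 were used.

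Genes and lists were chosen with earlier results of these data known, so no test was made on them. All members are named, and from the further lists every gene with a row except 1 that is not reported here. Sequences of peaks were not used here, as no genome of GRCm39 was at hand. Alternatives used other thresholds, joins and strength values.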

Additional observations from a re-analysis of the deposited data

How the results depend on the processing

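The list has no value per library, so no replicate could be left out. No paired analysis was possible because the list carries no columns per replicate; its p is the authors' value per peak. Of 18 alternatives 9 left a count within 1.5 times of the value reported, or a share within its counting interval. Among them, the 41 peaks became 31 when touching peaks were joined and 28 when those within 50 nt were. The 13 genes with a peak became 7 with peaks above the list's median log2 fold of 4.60, 6 with peaks above its median -log10 p of 5.68 and 8 when 2 or more separate regions were asked. The background fell too, to 3.95%, 3.57% and 3.41% of protein-coding genes. Leaving out the peaks on the step of 1 input read, a choice made after seeing the data, left 5 genes and 11 peaks. In the background 1.76% of protein-coding genes and 716 of all 4172 peaks were left. That choice may also drop peaks with more input reads that happen to fall on the step. Above the median fold 21 of the 41 peaks remained. The 3' UTR share stayed between 63.6% and 76.9%, within its counting interval, in all 6 alternatives run, without Cdkn1a included. That interval, 51.9 to 81.9, is wide, and the alternatives reuse the same peaks, so staying within it is a weak criterion. The median strongest log2 fold of 4.69 became 4.38 with the median peak of each gene (4.46 over all listed genes), 4.38 at the peak with the highest -log10 p (4.62) and 5.38 for genes with 2 or more regions (5.15). By each strength value the 13 genes stood level with or below all listed genes. They stood above only when genes with 2 or more regions were taken, so the order changed with the choice of genes.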
